A study of Homo sapiens with 14 samples.

Results

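The imprinted DLK1-DIO3 miRNA cluster was described here through 55 mature miRNAs, taken by name from the count tables as products of hairpins of this locus, out of 2588 mature miRNAs listed. They came from 40 hairpin names, and 15 of those hairpins contributed both arms. By arm, 18 members were 5p products, 35 were 3p products and 2 had no arm in their name. All 14 libraries were made from total RNA of A549 cells, a human lung adenocarcinoma line, so a single cell line stands behind every value. In BoRed-seq, decapped and dephosphorylated RNA was treated with NaBH4 (Red, 2 libraries), or with NaBH4 that acid had quenched (Ctrl, 2 libraries). Free m7GTP was present in both. Reduced N7-methylguanosine (m7G) loses its base at low pH, and the site is then tagged with biotin for capture on streptavidin. In m7G-RIP-seq, heat-denatured RNA was captured with an antibody against m7G (IP, 5 libraries) and compared with the RNA put into the capture (Input, 5 libraries). The labels number the replicates but name no separate cultures, so p-values measure the spread between these libraries, which may be technical.

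The locus lies on the long arm of chromosome 14 and is imprinted. The paternal chromosome expresses protein genes such as DLK1, RTL1 and DIO3, and the maternal chromosome expresses noncoding RNAs, among them MEG3, MEG8 and the miRNA hairpins. The hairpins are thought to be cut from long maternal transcripts and are best known from brain, placenta and muscle. Each hairpin can release a 5p and a 3p strand, and the strand loaded into Argonaute pairs with target mRNAs through its seed. Members made from 1 long transcript can therefore differ in level through processing, strand choice and stability.

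RefSeq held a mature sequence for 54 of the 55 members, and hsa-miR-668-3p was the exception. On GRCh38.p14 these 54 lay on the plus strand at chr14:100869075-101066786, over 41 hairpin genes and 197.7 kb. An upstream block from miR-493 to miR-370 spanned 42.1 kb and was listed with 13 members. A downstream block from miR-379 to miR-656 spanned 44.7 kb and was listed with 42 members. The blocks were 110.9 kb apart. In GENCODE v44, the upstream hairpins lay in introns of MIR493HG, and the mature sequences of 5 of them (miR-431, miR-433, miR-127, miR-432 and miR-136) lay antisense to an exon of RTL1. Of the downstream hairpins, 16 lay within MEG9, where 3 fell in an exon (miR-487a, miR-382 and miR-134), and 5 overlapped no other annotated gene.

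The sequences below are those the results turn on, written 5′ to 3′ with the seed (bases 2 to 8) in capitals. First come the members that either pulldown enriched, with a mean of at least 100 normalized counts.
hsa-miR-432-5p: uCUUGGAGuaggucauugggugg
hsa-miR-654-5p: uGGUGGGCcgcagaacaugugc
hsa-miR-369-5p: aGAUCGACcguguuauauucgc
hsa-miR-382-5p: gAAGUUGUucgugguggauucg
hsa-miR-485-5p: aGAGGCUGgccgugaugaauuc
hsa-miR-370-3p: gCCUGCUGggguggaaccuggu
hsa-miR-134-5p: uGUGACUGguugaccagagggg
hsa-miR-127-3p: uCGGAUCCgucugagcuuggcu
hsa-miR-409-3p: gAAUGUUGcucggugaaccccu
The next 6 are the members most depleted by the antibody at that level.
hsa-miR-381-3p: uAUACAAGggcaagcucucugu
hsa-miR-409-5p: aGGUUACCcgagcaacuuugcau
hsa-miR-654-3p: uAUGUCUGcugaccaucaccuu
hsa-miR-494-3p: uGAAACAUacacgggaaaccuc
hsa-miR-411-5p: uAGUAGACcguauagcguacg
hsa-miR-495-3p: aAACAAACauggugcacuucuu
The last pair completes the hairpins whose arms parted most.
hsa-miR-382-3p: aAUCAUUCacggacaacacuu
hsa-miR-369-3p: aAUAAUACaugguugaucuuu

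No seed is shared within this selection. Among the 54 sequences, 4 seeds were each shared by 2 members: miR-154-3p with miR-487a-3p, miR-379-3p with miR-411-3p, miR-485-3p with miR-539-3p, and miR-376a-3p with miR-376b-3p. miR-376a-3p and miR-376b-3p differ at 1 of 21 bases, so their counts could be split between them. Both arms of miR-329 map to 2 hairpins and had an even count in every library with any, 14 of 14 for the 3p arm and 12 of 12 for the 5p arm, as a read counted at both loci would give. miR-376a-3p, also from 2 hairpins, had an even count in 7 of 8 libraries with any.

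Library totals over all mature miRNAs were 242085 and 277498 in Red, 4678102 and 5874405 in Ctrl, 2854811 to 6452759 in IP and 7097379 to 14874685 in Input. The cluster made up 821 and 1886 counts of the Red libraries, against 13611 and 11548 in Ctrl, which limits what BoRed-seq can show for its weaker members. Of the 55 members, 53 were detected in each Ctrl library, 39 and 41 in Red, 51 to 55 in Input and 33 to 47 in IP. m7G-RIP-seq replicates 1 to 3 stood apart from replicates 4 and 5 on the second principal component (15.3% of the variance), and the labels give no batch, so results are also given by these sets where they differ. The epithelial markers miR-200b-3p (141 to 850 CPM over Ctrl and Input, where CPM scales a count by the library total) and miR-200c-3p (12.4 to 88.2) were present while miR-141-3p reached only 2.38. Markers of blood, neurons and liver stayed at or under 1.21, and of the stromal and muscle markers miR-143-3p was highest at 5.51 to 37.8.

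The cluster was a small part of each library. Its share was 0.232% and 0.247% in Ctrl, and 0.339% and 0.680% in Red, with 95% Wilson intervals of 0.317% to 0.363% and 0.650% to 0.711% for the Red libraries (counting error only). Because miR-21-5p took most of the Ctrl counts, the same shares without it were 1.10% and 1.26% in Ctrl against 0.464% and 0.927% in Red. The direction of the whole cluster in BoRed-seq therefore turned with the denominator. In m7G-RIP-seq the share was 0.245% to 0.304% in Input and 0.284% to 0.288% in IP for replicates 1 to 3, and 0.512% to 0.534% and 0.760% to 0.817% for replicates 4 and 5. Without miR-21-5p the shares were 0.455% to 0.511% in Input and 0.298% to 0.303% in IP for replicates 1 to 3, and 0.861% to 0.868% and 0.810% to 0.872% for replicates 4 and 5. Here too the reading depended on the denominator, without a reversal. In replicates 1 to 3 the groups overlapped with all counts, and IP lay below Input without miR-21-5p. In replicates 4 and 5 IP lay above Input with all counts, and the groups overlapped without miR-21-5p.

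What the pulldowns changed was the mix of members within the cluster, a measure that needs no scaling between libraries. In Input, hsa-miR-381-3p was the most counted member, with 24.8%, 22.8%, 23.2%, 23.1% and 23.4% of the cluster's counts in replicates 1 to 5. In IP it held 0.698%, 0.620%, 1.15%, 0.730% and 0.475%. No IP library came near any Input library. In Ctrl it held 40.8% and 47.4%, and in Red 7.67% and 12.4%. hsa-miR-382-5p moved the opposite way in BoRed-seq, from 0.507% and 0.520% of the cluster in Ctrl to 17.7% and 16.3% in Red. In m7G-RIP-seq miR-382-5p went from 0.347% to 1.15% in Input to 2.00% to 3.08% in IP. The 5p members together held a larger share after both pulldowns: they held 19.7% and 18.4% of cluster counts in Ctrl and 46.9% and 44.2% in Red, and 16.7% to 21.7% in Input and 37.0% to 49.9% in IP. Neither assay had overlapping groups in this summed share. Without miR-381-3p and miR-382-5p, whose own changes move every other share, the 5p members held 32.2% and 34.2% in Ctrl and 37.8% and 37.4% in Red, so most of the BoRed-seq change lay in these 2 members. In m7G-RIP-seq the share without them was 21.1% to 26.6% in Input and 34.7% to 48.1% in IP.

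**Figure D1:**
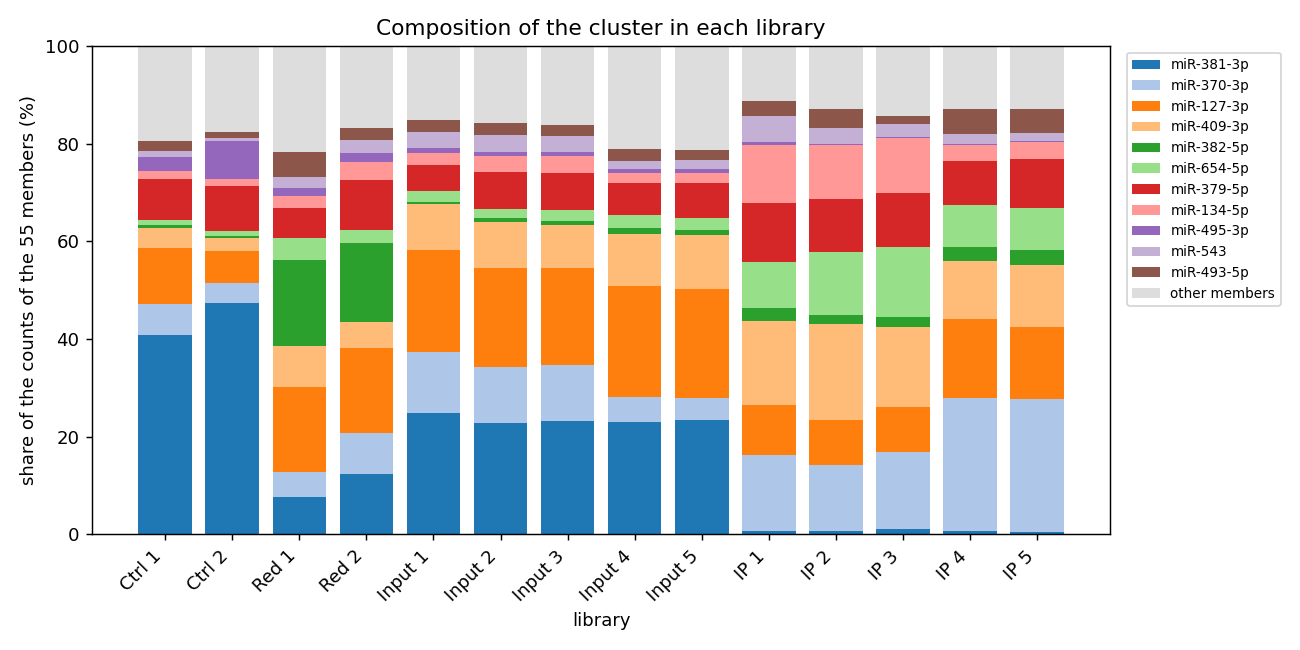
Share of the cluster's counts (%, vertical axis) held by each member that reached 5% in any library, for the 14 libraries (horizontal axis); all other members are in grey. The miR-381-3p segment shrinks from 40.8% and 47.4% in Ctrl to 7.67% and 12.4% in Red and to 0.475% to 1.15% in IP, while miR-382-5p widens from 0.507% and 0.520% to 17.7% and 16.3%.

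The first question was which members the m7G antibody enriched over Input. Of the 55 members, 42 passed the filter of at least 10 counts in 5 libraries and were tested. The antibody enriched 8 of them, depleted 17 and left 17 uncalled at an adjusted p under 0.05. Over all 670 miRNAs tested, 27.3% were enriched and 29.9% depleted. The median log2 enrichment was -0.999 over the 42 members and 0.02 over all miRNAs tested. Enriched and depleted members split by arm: of 16 members from the 5p arm 7 were enriched and 4 depleted (median log2 0.84), and of 25 from the 3p arm 1 was enriched and 13 depleted (median -1.68). Over all miRNAs tested, 82 of 256 5p products were enriched and 86 depleted (median 0.03), and 54 of 274 3p products were enriched and 87 depleted (median -0.15). The 5 Input libraries alone can meet the filter, so a member high in Input was tested whatever its IP counts. With 10 counts required in every library, 7 members were enriched and 7 depleted. The split by arm was not recounted under that filter.

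**Figure D2:**
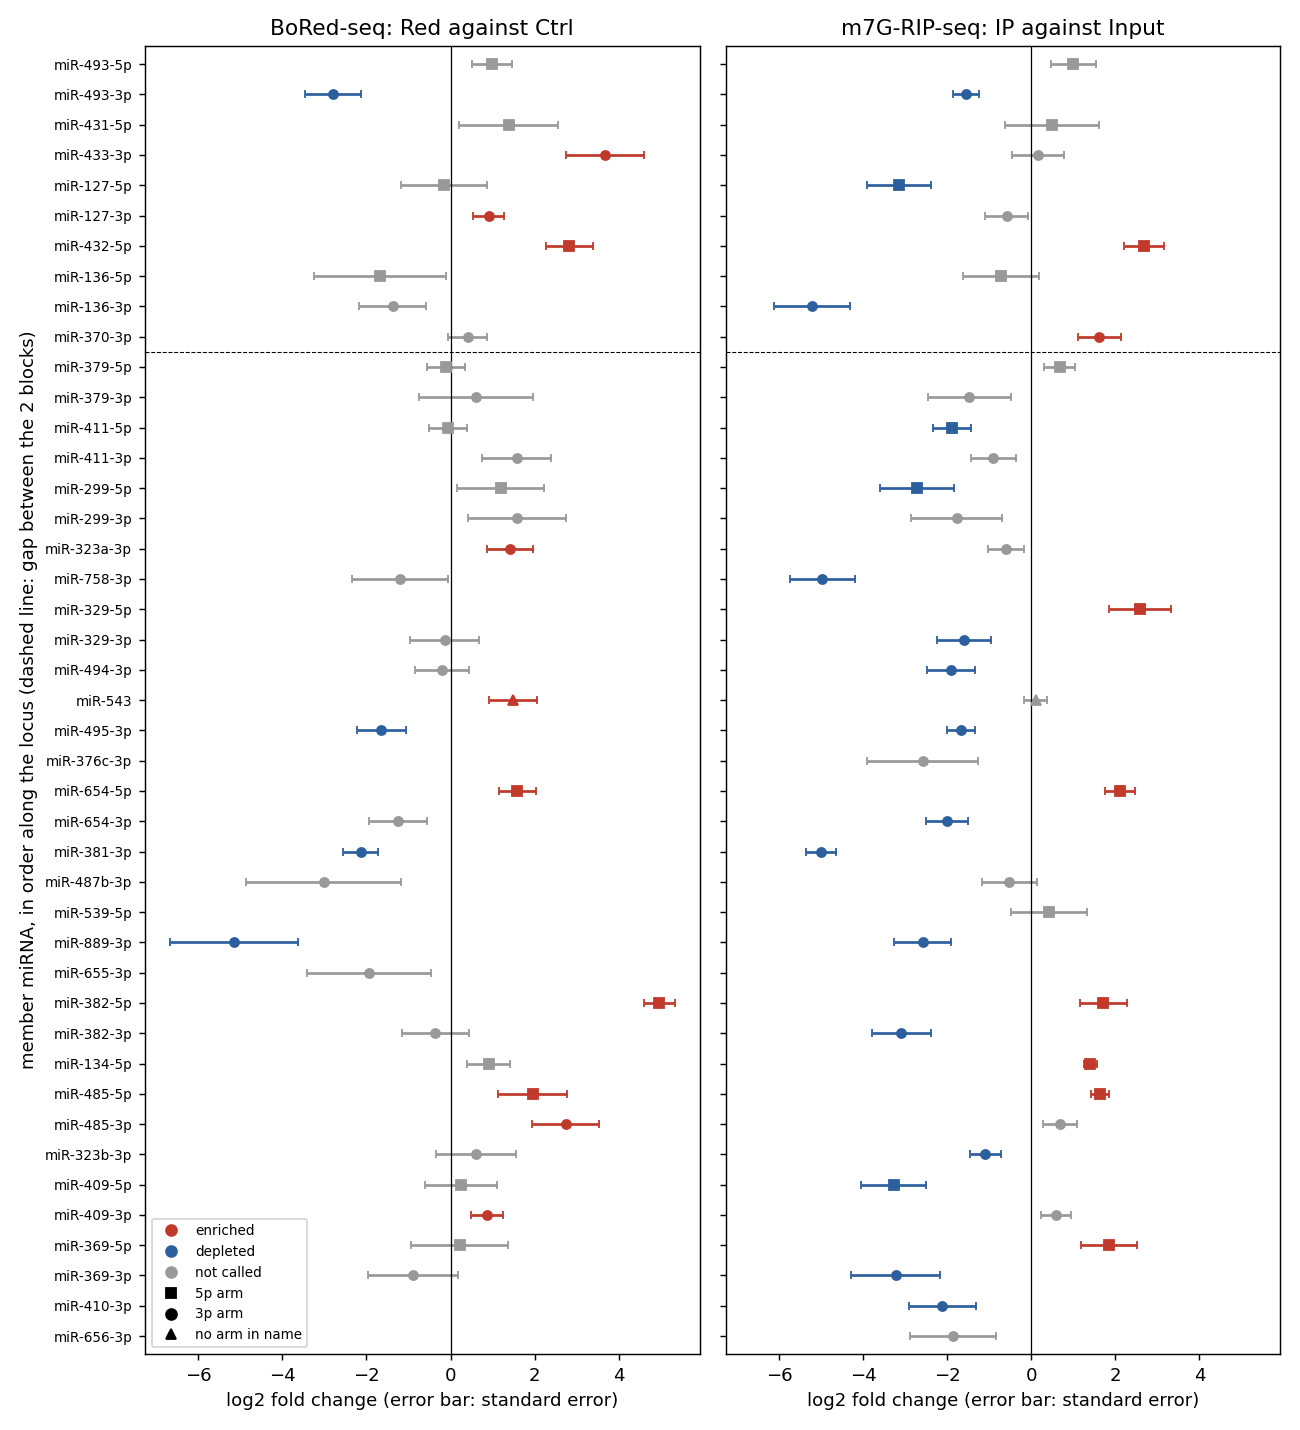
Log2 fold change (horizontal axis, error bars are standard errors) of each tested member, in order along the locus (vertical axis), in BoRed-seq and m7G-RIP-seq. Red symbols are enriched, blue depleted and grey uncalled; squares are 5p and circles 3p products. In m7G-RIP-seq 7 of the 8 enriched members are 5p products and 13 of the 17 depleted ones are 3p products.

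hsa-miR-432-5p, from the hairpins antisense to RTL1, had the largest enrichment. Its normalized counts were 161, 139.7, 161, 291 and 279 in Input and 535, 708, 655.4, 2437 and 2297 in IP (log2 2.68, SE 0.47, adjusted p = 4.52e-08). Every IP library lay above every Input library, and IP replicates 4 and 5 lay far above the other 3. hsa-miR-654-5p had 547, 431.3, 524, 1060.3 and 1039 in Input and 1753, 2379, 2487, 4571 and 4349 in IP (log2 2.11, SE 0.36, adjusted p = 2.85e-08). These groups did not overlap either.

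hsa-miR-369-5p and hsa-miR-382-5p were called with groups that overlapped. miR-369-5p had 35.04, 42.6, 58.1, 89.5 and 111 in Input and 88.4, 20.9, 152, 466 and 493.6 in IP (log2 1.86, SE 0.67, adjusted p = 0.0108). IP replicate 2 was the lowest of all 10 libraries, and the call was lost without IP replicate 4 (log2 1.49, adjusted p = 0.0541), without IP replicate 5 (log2 1.45, adjusted p = 0.0592) and in replicates 1 to 3 alone (log2 0.89, adjusted p = 0.267). miR-382-5p had 84.8, 165, 172, 446 and 453 in Input and 476, 369.2, 362, 1537 and 1574 in IP (log2 1.71, SE 0.56, adjusted p = 0.00508). Each IP library was above the Input library of its own number.

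A pair of enriched members was even across replicates. hsa-miR-134-5p, known in neurons for its control of dendritic spine size through Limk1, had 575 to 843 normalized counts in Input and 1679 to 2226 in IP (log2 1.41, SE 0.16, adjusted p = 2.93e-17). hsa-miR-485-5p, also studied at synapses, had 101 to 176 in Input and 356 to 492 in IP (log2 1.63, SE 0.22, adjusted p = 3.08e-12). Their groups did not overlap, and neither member rose in IP replicates 4 and 5 as miR-432-5p did. The low hsa-miR-329-5p was enriched by a log2 of 2.59 (SE 0.75, adjusted p = 0.00133), with IP replicate 1 at 2.64 inside the Input range of 2.26 to 12.8.

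Depletion reached further than enrichment. hsa-miR-381-3p had 6056, 4945, 5263, 8962 and 9487 normalized counts in Input and 129, 114, 198, 390.1 and 242 in IP (log2 -5.01, SE 0.36, adjusted p = 1.12e-42). It went from the most counted member in Input to one of the minor ones in IP. hsa-miR-409-5p had 179, 210.2, 242, 829.7 and 905 in Input and 11.9, 1.23, 42.1, 103 and 85.0 in IP (log2 -3.28, SE 0.77, adjusted p = 7e-05). hsa-miR-654-3p had 331, 262, 312, 681 and 796 in Input and 50.1, 52.9, 73.8, 251 and 164 in IP (log2 -2.004, SE 0.51, adjusted p = 0.000211). For these 3 the groups did not overlap.

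hsa-miR-494-3p had 366, 274, 318, 952 and 1013 in Input and 65.9, 67.7, 56.9, 289.8 and 296 in IP (log2 -1.91, SE 0.57, adjusted p = 0.00212). The highest IP libraries overlapped the lowest Input library, although within replicates 1 to 3 and within 4 and 5 the groups were apart. The other depleted members with a mean of at least 100 were hsa-miR-411-5p (log2 -1.89), hsa-miR-495-3p (log2 -1.68), hsa-miR-329-3p (log2 -1.60), hsa-miR-493-3p (log2 -1.55) and hsa-miR-323b-3p (log2 -1.10). The miR-329-3p call was lost without Input replicate 4 (adjusted p = 0.0937), Input replicate 5 (adjusted p = 0.0998) or IP replicate 3 (adjusted p = 0.0536), and also with total-count factors (adjusted p = 0.0729), by edgeR (adjusted p = 0.0603) and in replicates 1 to 3 alone (adjusted p = 0.416). The miR-323b-3p call was lost with total-count factors (adjusted p = 0.0632).

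Several lower members almost vanished from IP. hsa-miR-136-3p had 367 counts over the 5 Input libraries and 5 over the IP libraries, a ratio of 38.0-fold lower after scaling (95% interval of 16.2 to 118, counting error only). hsa-miR-758-3p, with IP counts of 1, 1, 2, 1 and 13 against 47 to 566 in Input, fell by 4.97 on the log2 scale (SE 0.78). Among members that did not pass the filter, miR-655-3p, miR-539-3p and miR-154-3p had no count in any IP library, and were at least 14.7-fold, 12.4-fold and 9.50-fold lower than in Input when 3 counts over the group are taken as the floor. The other 2 with no IP count, miR-380-3p and miR-337-5p, were at least 3.63-fold and 1.73-fold lower. hsa-miR-369-3p (log2 -3.23) and hsa-miR-410-3p (log2 -2.12) were called depleted, but not in replicates 1 to 3 alone (adjusted p = 0.0802 and 0.0963). Without Input replicate 5 these calls were also lost (adjusted p = 0.0552 and 0.082), and that of miR-410-3p without Input replicate 4 (adjusted p = 0.0665). The call of hsa-miR-299-5p (log2 -2.72) was lost in replicates 1 to 3 alone (adjusted p = 0.0802). miR-299-5p and miR-136-3p passed the filter through Input alone, the group where they were high, with every IP count under 10.

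Of the most counted members, 4 with means over 1000 were uncalled in the fit without pairing. hsa-miR-127-3p, whose target RTL1 lies on the opposite strand, had 5092, 4402, 4537, 8784 and 9052 in Input and 1862, 1707, 1572, 8636 and 7521 in IP (log2 -0.58, SE 0.51, adjusted p = 0.329). With the replicate number as a block it was depleted (log2 -0.93, adjusted p = 0.00184). hsa-miR-379-5p (log2 0.68, adjusted p = 0.101) and hsa-miR-409-3p (log2 0.59, adjusted p = 0.138) were enriched with the block (log2 0.59 for both, adjusted p = 0.00403 and 8.87e-05). hsa-miR-493-5p (log2 1.00, adjusted p = 0.103) stayed uncalled with it, but was enriched without IP replicate 3 (log2 1.24, adjusted p = 0.0193) and with total-count factors (adjusted p = 0.0331). miR-379-5p and miR-409-3p were also enriched within replicates 1 to 3 alone (log2 0.35 and 0.57) and within replicates 4 and 5 alone (log2 0.85 and 0.54).

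The replicate sets were then compared directly, in a test chosen after the data were seen. Of 32 members with an adjusted p for the difference between the sets, 6 differed, and all 6 were more enriched in replicates 4 and 5. Over all 488 miRNAs tested for this difference 26.8% differed. All 6 belonged to the upstream block: hsa-miR-493-5p, hsa-miR-493-3p, hsa-miR-127-5p, hsa-miR-127-3p, hsa-miR-432-5p and hsa-miR-370-3p, out of 8 upstream members tested. Of 24 downstream members tested, 0 differed at an adjusted p under 0.05 by DESeq2, the only tool used for this difference. Of these 24, 2 were under an unadjusted p of 0.05, miR-379-5p (adjusted p = 0.0743, higher in replicates 4 and 5) and miR-134-5p (adjusted p = 0.115, higher in replicates 1 to 3). Whether the blocks differ from each other was not tested.

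Among the 6, the well-counted hsa-miR-370-3p had the smallest adjusted p. Its normalized counts were 3049.5, 2494, 2571, 1973 and 1885 in Input and 2898, 2516, 2720.5, 14568 and 13939.7 in IP. In replicates 1 to 3 IP and Input overlapped (log2 -0.04, adjusted p = 0.842), and in replicates 4 and 5 IP was higher (log2 2.85, adjusted p = 2.77e-111), a difference of 2.88 (SE 0.18, adjusted p = 1.02e-55). The overall enrichment of miR-370-3p (log2 1.61, SE 0.51, adjusted p = 0.00388) thus came from replicates 4 and 5. hsa-miR-493-5p behaved alike, at -0.08 in replicates 1 to 3 and 1.52 in replicates 4 and 5 (difference 1.59, SE 0.40, adjusted p = 0.000656). For miR-432-5p both sets were enriched, at 2.01 and 3.02. For hsa-miR-127-3p the depletion of -1.49 in replicates 1 to 3 shrank to -0.17 in replicates 4 and 5. The sign was the same in both sets for 37 of 42 members, and 0 were called in opposite directions.

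**Figure D3:**
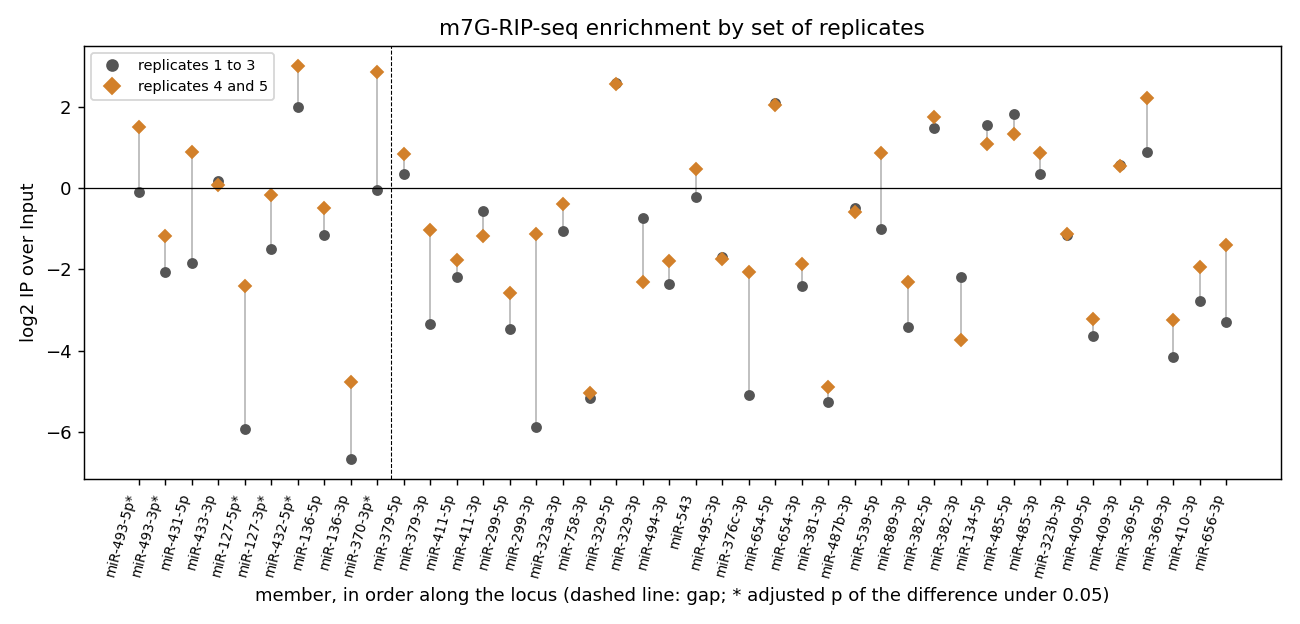
Log2 of IP over Input (vertical axis) for each of the 42 tested members in order along the locus (horizontal axis), in replicates 1 to 3 (grey circles) and 4 and 5 (orange diamonds); values of members with no count in a set's IP libraries depend on the fit. The asterisks of an adjusted p under 0.05 all lie left of the dashed line, on 6 members of the upstream block, the widest called gap of the well-counted ones being miR-370-3p at -0.04 and 2.85.

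The second question was which members borohydride reduction enriched. In BoRed-seq 44 members had at least 10 counts in 2 libraries and 38 of them received an adjusted p. The reduced libraries were enriched for 10 members and depleted of 4, and 24 were uncalled. Over all 400 miRNAs tested, 32.2% were enriched and 27.2% depleted. The median log2 change was 0.33 over the 38 members and -0.09 over all miRNAs tested. All 4 depleted members were 3p products, while of 14 tested 5p products 4 were enriched and 0 depleted (median log2 0.94) and of 23 tested 3p products 5 were enriched (median -0.21). Over all miRNAs tested, 42 of 161 5p products were enriched and 57 depleted, and 35 of 163 3p products were enriched and 43 depleted. By edgeR's quasi-likelihood test 9 members were enriched and 12 depleted, so the count of depleted members depended on the tool.

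hsa-miR-382-5p stood above the other members. Its normalized counts were 19.1 and 22.3 in Ctrl and 537 and 751 in Red (log2 4.97, SE 0.36, adjusted p = 4.86e-41). The Red libraries held more raw counts of it, 145 and 307, than the much deeper Ctrl libraries, 69 and 60. hsa-miR-432-5p followed among the 5p members, with 10.2 and 17.1 in Ctrl and 111 and 83.2 in Red (log2 2.83, SE 0.56, adjusted p = 1.58e-06). hsa-miR-654-5p had 42.9 and 42.0 in Ctrl and 137 and 119.9 in Red (log2 1.59, SE 0.44, adjusted p = 0.000818). hsa-miR-485-5p was enriched as well, from 6.92 and 8.55 to 33.3 and 26.9 (log2 1.96, SE 0.81, adjusted p = 0.0291). All 4 of these 5p members were those enriched by the antibody too.

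Enriched 3p members were led by hsa-miR-433-3p, antisense to RTL1, with 14 and 5 raw counts in Ctrl and 5 and 22 in Red (log2 3.67, SE 0.92, adjusted p = 0.000188), and by hsa-miR-485-3p (log2 2.74, SE 0.80, adjusted p = 0.00147). Among well-counted members, hsa-miR-127-3p had 428 and 282 normalized counts in Ctrl and 529.6 and 803 in Red (log2 0.91, SE 0.37, adjusted p = 0.0231). hsa-miR-409-3p had 161 and 113 in Ctrl and 256 and 247 in Red (log2 0.87, SE 0.38, adjusted p = 0.0361). These 2 changes were small, and neither was called with TMM factors (adjusted p = 0.0911 and 0.108), nor was miR-485-5p (adjusted p = 0.0541). hsa-miR-543 (log2 1.49, adjusted p = 0.0172) and hsa-miR-323a-3p (log2 1.41, adjusted p = 0.0197) completed the list.

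The depleted members were hsa-miR-381-3p, hsa-miR-493-3p, hsa-miR-495-3p and hsa-miR-889-3p. miR-381-3p had 1537 and 2037 in Ctrl and 233 and 570.2 in Red (log2 -2.14, SE 0.41, adjusted p = 7.94e-07). miR-495-3p had 105 and 332 in Ctrl and 51.8 and 85.6 in Red (log2 -1.65, SE 0.59, adjusted p = 0.00997). Red lay below Ctrl in both, but the Ctrl libraries of miR-495-3p were themselves apart. miR-493-3p had 109 in each Ctrl library and 7.41 and 22.0 in Red (log2 -2.80, SE 0.66, adjusted p = 6.61e-05). miR-889-3p had 170 and 163 raw counts in Ctrl and 1 and 0 in Red, a ratio of 35.9-fold lower after scaling, with a 95% interval of 6.39 to 1420 that covers counting error only. A further 4 members of the 3p arm had no count in either Red library and received no adjusted p. With 3 counts over the group as the floor, miR-376c-3p, miR-376a-3p and miR-539-3p were at least 2.44-fold, 2.23-fold and 1.58-fold lower than in Ctrl, while the 27 Ctrl counts of miR-377-3p were too few to show a lower level. With total-count factors, which moved the median log2 over the 453 miRNAs past the filter, with or without an adjusted p, from -0.32 to 0.76, miR-381-3p, miR-493-3p and miR-495-3p were no longer called (adjusted p = 0.0782, 0.0504 and 0.531), all still below 0.

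With 2 libraries a group, most BoRed-seq calls hung on single libraries. Each such fit leaves 1 group with a single library, which is assumed to vary like the pair in the other group. Leaving out Ctrl 1 ended the calls of miR-323a-3p, miR-409-3p, miR-485-3p, miR-485-5p, miR-543 and miR-654-5p (adjusted p of 0.0642 to 0.416). Leaving out Ctrl 2 ended the calls of those 6 members and those of miR-127-3p and miR-495-3p (0.0691 to 0.542). Leaving out Red 1 ended those of miR-323a-3p, miR-409-3p, miR-485-5p and miR-495-3p (0.0866 to 0.162), and leaving out Red 2 those of miR-127-3p, miR-323a-3p, miR-409-3p, miR-485-5p and miR-543 (0.135 to 0.412). Under that assumption miR-382-5p, miR-432-5p, miR-433-3p, miR-381-3p, miR-493-3p and miR-889-3p were still called without any 1 library, except that miR-433-3p received no adjusted p without Red 2. The size of the miR-381-3p depletion still moved, to a log2 of -1.50 without Red 1 and -3.02 without Red 2, as did that of miR-493-3p (-2.17 and -3.96) and miR-889-3p (-6.76 and -3.94). For miR-382-5p the log2 change then ran from 4.62 to 5.33.

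In all, 4 members were enriched in both assays, hsa-miR-382-5p, hsa-miR-432-5p, hsa-miR-485-5p and hsa-miR-654-5p, and 4 were depleted in both, hsa-miR-381-3p, hsa-miR-493-3p, hsa-miR-495-3p and hsa-miR-889-3p. The first 4 are all 5p products and the last 4 all 3p products. Of the last 4, miR-493-3p and miR-889-3p passed the BoRed-seq filter through Ctrl alone, the group where they were high. Their Red counts were 2 and 9, and 1 and 0. Over all miRNAs tested, 32.2% were enriched and 27.2% depleted in BoRed-seq, and 27.3% and 29.9% in m7G-RIP-seq. Joint and opposite calls were not counted over all miRNAs, so those of the members have no share to be set against. In the fit without pairing 0 members were enriched in 1 assay and depleted in the other, and of the 10 members enriched in BoRed-seq the other 6 were uncalled in m7G-RIP-seq. With the replicate block in m7G-RIP-seq, 4 of these 6 were called: miR-409-3p (adjusted p = 8.87e-05) and miR-485-3p (0.0277) were enriched, and miR-127-3p (0.00184) and miR-323a-3p (0.00238) were depleted, the direction opposite to BoRed-seq. Without pairing, 12 members depleted in m7G-RIP-seq were uncalled in BoRed-seq. The change itself differed between the assays for 13 of 37 members tested in both, against 38.0% of all 384 miRNAs. In all 13 the BoRed-seq value was the higher. The direction was not counted over the 146 miRNAs that differed, and it rests on the separate scaling of each assay. Total-count factors moved the median log2 of miRNAs past the filter from -0.32 to 0.76 in BoRed-seq and from 0.02 to 0.38 in m7G-RIP-seq. The widest well-counted gaps were those of miR-382-5p (4.97 against 1.71, a difference of 3.26, SE 0.67, adjusted p = 8.59e-06) and miR-381-3p (-2.14 against -5.01, a difference of 2.87, SE 0.55, adjusted p = 1.64e-06). Both assays moved each of these the same way by different amounts. Without Ctrl 1 or Ctrl 2 the count of 13 fell to 2, and without Red 2 to 4.

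The arms of a hairpin leave the same precursor, so their ratio within a library needs no scaling between libraries. In m7G-RIP-seq the ratio of 5p to 3p counts changed for 12 of 15 hairpins with both arms counted, at an adjusted p under 0.05 with limma over all 155 hairpins, of which 45.8% changed. The ratio moved toward the 5p arm in 9 hairpins (miR-382, miR-369, miR-654, miR-329, miR-379, miR-136, miR-323a, miR-493 and miR-485) and toward the 3p arm in 3 (miR-409, miR-370 and miR-127). Among all hairpins with a sequence for both arms, 63 were called, 41 toward the 5p arm and 22 toward the 3p arm, so the lean toward 5p was general. The remaining 3, miR-431, miR-411 and miR-299, were uncalled. For miR-431, miR-370 and miR-323a, 1 of the arms is not among the 55 members.

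The miR-654 hairpin gave the most even shift. Its log2 ratio of 5p to 3p counts was 0.72, 0.72, 0.75, 0.64 and 0.38 in Input and 5.11, 5.47, 5.06, 4.18 and 4.73 in IP (change 4.27, SE 0.28, adjusted p = 1.86e-06). The 2 arms were thus near balance in Input, and the 5p arm prevailed in every IP library. The miR-382 ratio was 0.58, 1.89, 1.56, 0.98 and 1.21 in Input and 9.50, 5.14, 3.68, 6.28 and 6.88 in IP (change 5.05, SE 0.92, adjusted p = 0.00145). The highest of these, in IP replicate 1, rests on 361 counts of the 5p arm and 0 of the 3p arm. The miR-369 ratio changed by 4.47 (SE 0.58, adjusted p = 0.000139), from 0.45 to 2.32 in Input to 5.13 to 7.08 in IP. hsa-miR-369-3p is known for raising translation of TNF mRNA in resting cells, and it is the arm that IP lacked.

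The miR-409 hairpin went the opposite way. Its ratio was -3.70, -3.27, -3.04, -2.33 and -2.29 in Input and -8.00, -10.9, -6.04, -5.93 and -6.24 in IP (change -4.50, SE 0.92, adjusted p = 0.00261). Here the 3p arm was already dominant in Input, and the 5p arm was depleted further. miR-370 (change -3.19, SE 0.77, adjusted p = 0.0065) and miR-127 (change -3.12, SE 0.40, adjusted p = 0.000139) had the same direction with an already dominant 3p arm. In miR-379 the dominant 5p arm gained (change 3.12, SE 0.83, adjusted p = 0.0108), whereas in miR-329 and miR-323a the minor 5p arm gained (changes 3.96 and 2.43). Of the 12 called hairpins, 8 moved toward the arm with the higher mean in Input and 4 toward the lower (miR-136, miR-323a, miR-329 and miR-485). In BoRed-seq all 3 called hairpins (miR-493, miR-654 and miR-382) moved toward the arm lower in Ctrl, and 0 toward the higher. This was not counted over all hairpins.

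Weaker calls among the 12 were those of miR-136 (change 2.87, adjusted p = 0.0387, and 0.0539 with the replicate block) and miR-485 (change 1.08, adjusted p = 0.0332). The miR-136 call was lost without any 1 Input library and without IP replicate 4 or 5 (adjusted p of 0.0592 to 0.0806). The miR-485 call was lost without Input replicate 1, 3, 4 or 5 and without IP replicate 1, 2 or 3 (0.0582 to 0.0725). An exact permutation test per hairpin kept 11 calls and not that of miR-323a (adjusted p = 0.0674). With both arms at a mean of at least 50 counts, 7 member hairpins were called, where fewer hairpins were tested. In replicates 1 to 3 alone the calls of miR-382 (adjusted p = 0.059), miR-370 (0.106), miR-323a (0.134) and miR-136 (0.352) were lost, and in replicates 4 and 5 alone those of miR-379 (0.0848), miR-323a (0.0511) and miR-485 (0.179).

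In BoRed-seq the arm ratio changed for 3 of 12 hairpins, miR-382, miR-493 and miR-654, all toward the 5p arm, against 31.0% of all 100 hairpins. Among all hairpins with a sequence for both arms, 29 were called, 20 toward the 5p arm and 9 toward the 3p arm. The miR-382 ratio was -0.44 and -0.16 in Ctrl and 4.28 and 5.56 in Red (change 5.22, SE 0.58, adjusted p = 0.00755). The miR-493 ratio was -0.42 and -1.08 in Ctrl and 4.09 and 2.26 in Red (change 3.92, SE 0.77, adjusted p = 0.0285). The miR-654 ratio was -0.55 and -0.44 in Ctrl and 1.71 and 3.17 in Red (change 2.93, SE 0.62, adjusted p = 0.0352). The same 3 hairpins moved toward the 5p arm in m7G-RIP-seq. Without Ctrl 1 or Ctrl 2 none of the 3 was called (adjusted p of 0.0985 to 0.222), 2 were called without Red 1 and 5 hairpins without Red 2. miR-409, with a change of -0.38 (SE 0.52, adjusted p = 0.606), and miR-485, with -0.85 (SE 0.58, adjusted p = 0.342), had no called change. In simulated data this arm test recovered 9 of 52 planted changes in BoRed-seq and 50 of 64 in m7G-RIP-seq. An uncalled ratio in BoRed-seq therefore says little.

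**Figure D4:**
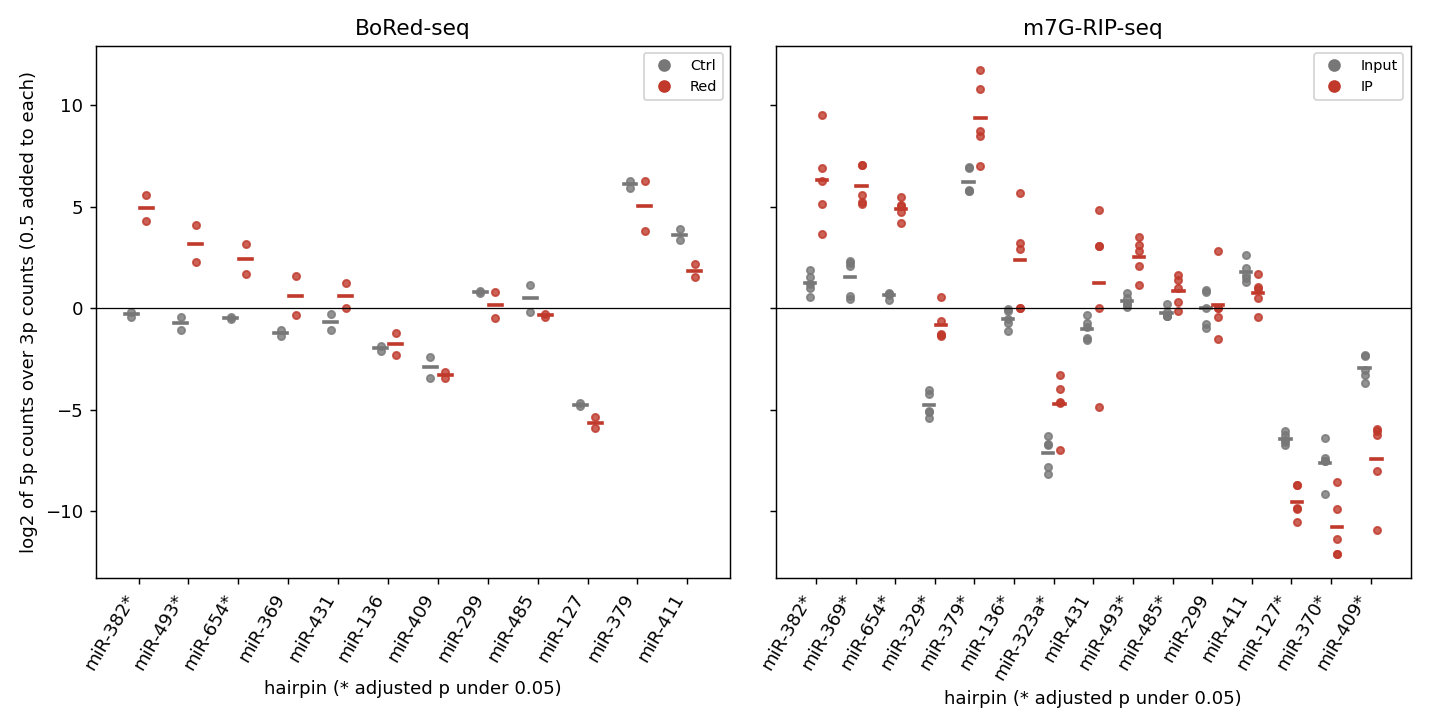
Log2 of 5p over 3p counts (0.5 added to each, vertical axis) for member hairpins (horizontal axis) in every library; points are libraries and bars are group means, grey for Ctrl or Input and red for Red or IP. In m7G-RIP-seq the miR-654 points sit at 0.38 to 0.75 in Input and 4.18 to 5.47 in IP, and miR-409 moves down instead.

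The counts by block are read against the shares of all miRNAs tested. These were 32.2% enriched and 27.2% depleted in BoRed-seq and 27.3% and 29.9% in m7G-RIP-seq. Enriched members lay under those shares in each block and assay. Depleted members lay under them in both blocks of BoRed-seq. In m7G-RIP-seq they lay near the share upstream and above it downstream, which was not tested. Upstream, 3 of 10 tested members were enriched and 1 depleted in BoRed-seq (median log2 0.66), and 2 of 10 were enriched and 3 depleted in m7G-RIP-seq (median -0.21). Downstream, 7 of 28 were enriched and 3 depleted in BoRed-seq (median 0.24), and 6 of 32 were enriched and 14 depleted in m7G-RIP-seq (median -1.53). Neighbours of the same block could thus differ in direction: the miR-432 and miR-136 hairpins lie 15.4 and 15.6 kb from the first member, and miR-432-5p was enriched by the antibody while miR-136-3p was depleted. The miR-654 and miR-381 hairpins lie at 171.2 and 176.9 kb, and miR-654-5p and miR-381-3p went opposite ways in both assays. The miR-382, miR-134 and miR-485 hairpins lie at 185.2 to 186.4 kb, and the 5p arm of each was enriched by the antibody. In the same stretch miR-382-3p was depleted (log2 -3.09), as was miR-323b-3p (log2 -1.10) from the miR-323b hairpin at 187.2 kb. Of the 7 members antisense to RTL1, 3 were enriched in BoRed-seq (miR-432-5p, miR-433-3p and miR-127-3p) and 0 depleted, and in m7G-RIP-seq 1 was enriched (miR-432-5p) and 2 depleted (miR-127-5p and miR-136-3p). Of 37 further arms of the locus outside the 55, 8 were tested in m7G-RIP-seq, with 3 enriched (miR-323a-5p, miR-487a-5p and miR-541-3p) and 3 depleted (miR-431-3p, miR-1185-1-3p and miR-377-5p), and 2 in BoRed-seq with 0 called. At an unadjusted p under 0.05, 0 of those 2 passed in DESeq2.

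Guanines were then counted in each sequence, since m7G can form only at a G. In m7G-RIP-seq the 8 enriched members had a median of 9 G (5 to 10), the 17 uncalled ones 5 (1 to 8) and the 17 depleted ones 3 (2 to 8). Over all tested miRNAs with a sequence the medians were 9, 6 and 5. These and the later sequence counts cover 602 of 670 tested miRNAs in m7G-RIP-seq and 355 of 400 in BoRed-seq. The Spearman correlation of G number with log2 enrichment was 0.58 over the 42 members and 0.44 over 602 miRNAs. In BoRed-seq it was 0.39 over 38 members and 0.37 over 355 miRNAs. These are descriptions across miRNAs that share libraries and base composition, and are not tests. The A and U share showed the opposite sign, at -0.43 in m7G-RIP-seq and -0.51 in BoRed-seq over the members. Over the 602 and 355 miRNAs it was -0.34 and -0.35.

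Exceptions to the count of G were plain. hsa-miR-493-3p, with 8 G, was depleted in both assays, and hsa-miR-127-5p, with 7, was depleted by the antibody. hsa-miR-369-5p was enriched by the antibody with 5 G and no GG. In BoRed-seq, hsa-miR-485-3p and hsa-miR-323a-3p were enriched with 3 G each. At least 2 separate runs of GG or longer, read on the miRNA strand, were present in 7 of 8 enriched, 6 of 17 uncalled and 1 of 17 depleted members of m7G-RIP-seq, the last being miR-493-3p. The shares over all tested miRNAs with a sequence were 67.3%, 36.1% and 17.6%, and 39.5% of all 602 held such runs. GGG was present in 5 of 8 enriched, 3 of 17 uncalled and 3 of 17 depleted members. Over all tested miRNAs with a sequence it was present in 54.97%, 31.0% and 22.2%, or 35.2% of all 602. GGG windows also count as runs of GG.

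**Figure D5:**
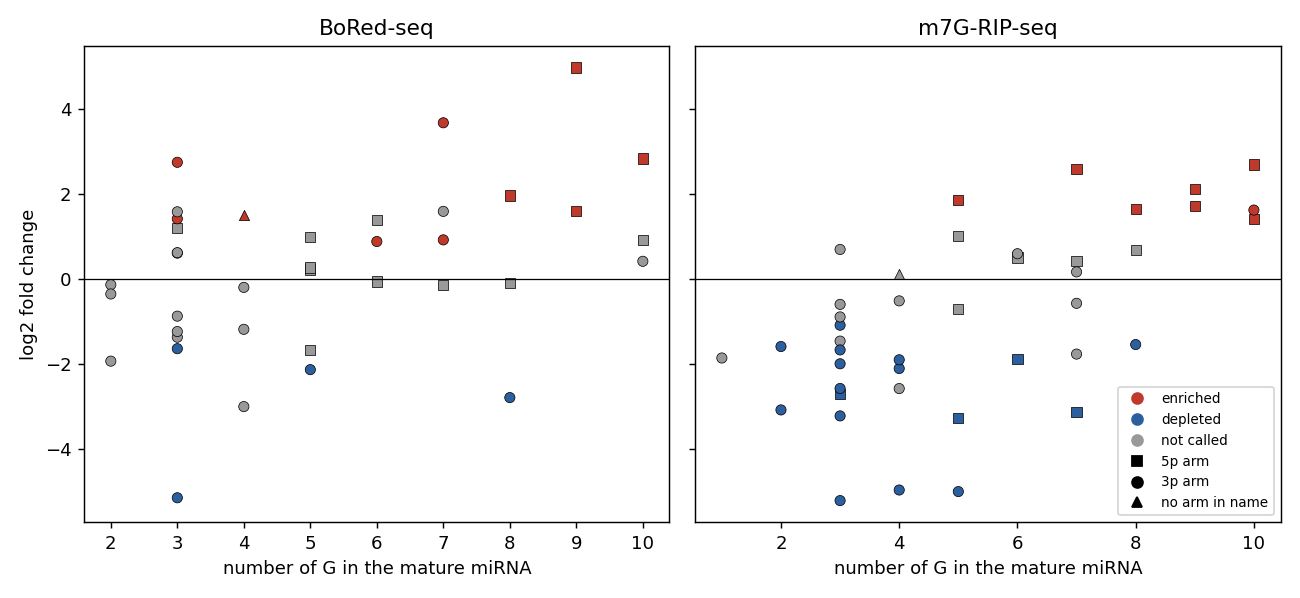
Log2 fold change (vertical axis) against the number of G in the mature sequence (horizontal axis) for the members tested in BoRed-seq (38) and m7G-RIP-seq (42); colours give the call and shapes the arm. In m7G-RIP-seq enriched members have 5 to 10 G with a median of 9 and depleted members 2 to 8 with a median of 3.

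Arm and G number were linked within the cluster, with a median of 6.5 G in the 18 5p members and 3 in the 34 3p members with a sequence. Of the 3p members tested in m7G-RIP-seq, 18 had fewer than 5 G and 11 of them were depleted and 0 enriched, while of 7 with 5 or more 2 were depleted and 1 enriched (miR-370-3p, with 10 G). Over all 3p miRNAs, 35.7% of 112 with fewer than 5 G were depleted and 15.2% enriched, and of 140 with 5 or more 29.3% and 23.6%. Of 15 tested 5p members with 5 or more G, 7 were enriched and 3 depleted, and of all 195 such 5p miRNAs 37.9% and 26.7%. These counts use the filter that Input libraries alone can meet, and were not repeated with 10 counts in every library. Within hairpins, 10 of the 11 with a called arm shift and unequal G numbers moved toward the G-richer arm in m7G-RIP-seq, and the exception was miR-493, with 5 G in the 5p arm and 8 in the 3p arm. Over all hairpins with both sequences this was 51 of 60. miR-127 has 7 G in each arm, and its ratio still moved by -3.12. In BoRed-seq 2 of 3 called member hairpins, and 21 of 27 of all, moved toward the G-richer arm. Across the 15 member hairpins of m7G-RIP-seq the Spearman correlation of the G difference with the arm shift was 0.66, and across the 12 of BoRed-seq it was 0.05. Over all hairpins with both sequences it was 0.51 in m7G-RIP-seq (138 hairpins) and 0.41 in BoRed-seq (87 hairpins).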

How the data were processed

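Small RNA libraries of A549 cells were counted by the authors per mature miRNA. They trimmed adaptors with Trimmomatic and counted reads with featureCounts over miRBase miRNAs on GRCh38. Their methods name STAR (end to end, at most 1 mismatch, up to 10 loci a read), whereas the submitters' processing notes name Bowtie2, and versions are not given in the sources used here. The deposited values are raw read counts, unnormalized and not pooled. By the even counts of miR-329, a read matching several loci appears to be counted at each.

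Groups followed the sample labels. Enrichment was fitted over all miRNAs with DESeq2 1.42.0 (Wald test, medians of ratios, Benjamini-Hochberg adjustment), after a filter of 10 counts in 2 (BoRed-seq) or 5 (m7G-RIP-seq) libraries. An adjusted p under 0.05 is a call. Scaling takes the typical miRNA as unchanged. Arm ratios (0.5 added per arm) were tested with limma 3.58.1, and assays with a two-sided z test. Alternatives used edgeR 4.0.16. Scripts were tested on simulated data. Same-numbered IP and Input libraries deviated together (r of 0.13 to 0.36 in 5 of 5 pairs). Libraries of other numbers within replicates 1 to 3 (0.05 to 0.16) or 4 and 5 (0.33 and 0.35) did so about as much. IP replicate 4 went more with Input replicate 5 (0.33) than with Input replicate 4 (0.28). The check thus shows the 2 sets and does not settle the pairs, so the replicate block rests on the replicate numbers alone.

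Members named are those called in BoRed-seq, those called in m7G-RIP-seq at a mean of at least 100, both arms of tested hairpins, and members with a mean of at least 1000. Others named were chosen after their values were seen. Members, lists and tests were chosen with earlier results of these data known.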

Additional observations from a re-analysis of the deposited data

Results flagged for a closer look

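Among 58 groups of 5 libraries checked in m7G-RIP-seq (29 members, Input and IP), 1 held a library that stood off from the other 4. The normalized count of miR-382-3p was 0 in IP replicate 1 and 9.84 to 27.4 in the other IP libraries, a gap of 0.753 of the range on the log2 scale against a limit of 0.71. Chance gives about 1 in 20 such groups, so 1 in 58 is no pattern. The same library gives the highest miR-382 arm ratio.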

How the results depend on the processing

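In BoRed-seq the count of enriched members was 10, and it was 18 with total-count factors, 4 with no count filter, 6 with 10 counts in every library, 7 with TMM factors and 3 to 8 without any 1 library. The count of depleted members was 4, and it was 1 with total-count factors, 12 by edgeR, 2 with 10 counts in every library, 2 with Ctrl thinned to the Red depth and 3 to 4 without any 1 library. In m7G-RIP-seq 8 members were enriched, 13 in replicates 4 and 5 alone and 6 to 9 without any 1 library, and 17 were depleted, 7 with 10 counts in every library and 14 to 22 without any 1 library. Changed arm ratios numbered 3 in BoRed-seq, 5 with a pseudocount of 5 and 0 to 5 without any 1 library, and 12 in m7G-RIP-seq, 7 with both arms at a mean of 50 counts and 10 to 12 without any 1 library. The 13 members that differed between assays became 4 with 10 counts in every library and 2 to 17 without any 1 library. In replicates 1 to 3 alone the log2 enrichment turned for miR-493-5p (-0.082) and miR-370-3p (-0.037). Results followed here were those of members called in an assay or with a mean of at least 1000 in it, and called arm ratios. The others of these kept their direction under all alternatives that gave a value, and 29 settings gave none or no adjusted p. Uncalled members with lower counts were not followed, and some turned. miR-431-5p had a log2 of -1.84 in replicates 1 to 3 and 0.90 in replicates 4 and 5 of m7G-RIP-seq. With the replicate block miR-433-3p went from 0.16 to -0.13 there, and miR-369-5p from 0.21 to -0.07 in BoRed-seq. The cause of these changes was not tested, except that a stricter filter leaves fewer members.

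The pairing by replicate number gave 8 enriched and 4 depleted members with the replicate block in BoRed-seq, where the 2 pairs share only a number (r of 0.106), and ended the calls of miR-323a-3p (adjusted p = 0.0659) and miR-485-5p (0.11). In m7G-RIP-seq the block gave 11 and 24 members, with 11 arm ratios, and in BoRed-seq 3 arm ratios. The assay difference then held for 12 members, and the m7G-RIP-seq block ended 0 calls of members. Beyond the calls given in the report it added depletion of miR-379-3p (adjusted p = 0.00522), miR-411-3p (0.0453), miR-299-3p (0.00415), miR-376c-3p (0.00262) and miR-656-3p (0.0103). Total-count factors moved the median log2 of all miRNAs past the filter from -0.32 to 0.76 in BoRed-seq and from 0.02 to 0.38 in m7G-RIP-seq, and TMM factors to -0.51 and 0.05. The small Red libraries limit BoRed-seq, where 1 miRNA in Red 1 must exceed 0.00124% of counts to differ from a count of 0.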
